A study of Mus musculus with 6 samples.

Results

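Rab GTPases are the largest branch of the Ras superfamily, and each marks the membrane of a particular organelle or transport carrier. The Rab genes described here are every protein-coding gene of the count table whose symbol is Rab followed by a number and at most a letter and a further digit. This rule found 59 symbols on 60 of the 40166 entries of the table, since Rab3a is listed on chromosome 8 and again on an unplaced scaffold.

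The study gave Rigosertib (RGS), a small molecule developed as a RAS-mimetic and kinase inhibitor, to mice bearing tumors of YUMM3.3, an established mouse melanoma line with mutant Braf. C57BL/6 mice carried the tumors under the skin of the lower back and received RGS at 300 mg/kg, or water as vehicle, by oral gavage on 5 days a week. Tumors were taken after 17 days of treatment, 3 per group (vehicle replicates 7, 8 and 9 and RGS replicates 10, 11 and 12), and their bulk RNA was sequenced. The methods of the study give its recipient mice as males or females 8 to 10 weeks of age, without the sex behind each of these libraries. The labels do not say whether each tumor came from a separate mouse, so p-values measure the spread between these 6 samples. Both groups share the strain, the single tumor line, the site and the day, and differ by the treatment.

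The vehicle libraries held 32555494, 26652104 and 22793087 counts and the RGS libraries 21617368, 13837932 and 17768758, so every RGS library was smaller than every vehicle library. Levels are given as CPM, the counts of a gene divided by the size of its library in units of 1e6 counts and scaled by the trimmed mean of M-values (TMM), always in the order of replicates 7, 8 and 9 for vehicle and 10, 11 and 12 for RGS. Mitochondrially encoded genes took 2.13%, 2.23% and 3.20% of counts in vehicle and 5.60%, 7.25% and 8.22% in RGS, a shift whose part in the results was not tested beyond leaving those genes out, which kept 7 Rab genes higher and 9 lower. Spearman correlations between libraries across genes were 0.970 to 0.983 within a group and 0.923 to 0.945 between groups.

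The label calls the tissue a melanoma tumor, while genes of the melanocyte program had few or no counts in it. Of 12 melanocyte lineage genes, 6 had no count in any tumor (Tyr, Dct, Mlana, Slc45a2, Oca2 and Gpr143), and the most abundant, Mitf, measured 7.45, 4.28 and 4.64 CPM in vehicle and 10.5, 7.31 and 4.53 CPM in RGS. The summed level of the 12 was 8.68, 7.66 and 6.97 CPM in vehicle and 10.5, 9.27 and 6.85 CPM in RGS, with overlapping groups. Only 4 of the 12 had enough counts to be tested. With edgeR 0 of these 4 were past the threshold, against 16.3% higher and 16.5% lower of all tested genes. Of the 4, 1 was lower at an unadjusted p under 0.05 with edgeR, and the calls were 0 with DESeq2 and 1, lower, with limma voom. The broadly expressed trafficking genes Ehd1 and Gcc2 also had no count in any tumor, and whether such zeros come from the tumors or from the counting was not tested. In bulk tumors, fewer cells of a type and less RNA per cell cannot be told apart.

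A Rab protein switches between a GDP-bound form, held in the cytosol by GDP dissociation inhibitors (GDIs), and a GTP-bound form that sits on membrane through its prenyl groups and recruits effectors. Guanine nucleotide exchange factors (GEFs) turn Rabs on and GTPase-activating proteins (GAPs) turn them off. In melanocytes Rab32 and Rab38 deliver pigment enzymes to melanosomes, and Rab27a links mature melanosomes to Myo5a for transport toward the cell edge.

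Of the 60 Rab entries, 52 passed a filter on low counts and entered edgeR's quasi-likelihood test, which was run on 15355 genes with Benjamini-Hochberg (BH) adjustment and a threshold of 0.05. Among these, 7 Rab genes were higher in RGS (13.5%, against 16.3% of all tested genes) and 9 were lower (17.3%, against 16.5% of all tested genes). The values of the RGS and vehicle tumors did not overlap for 26 of the 52 (50.0%), against 45.8% of all tested genes. In this fit the shares lie near the background and are not a result about the family. The share of higher Rab genes moved with the settings, to 28.85% against 20.01% of all tested genes with a gene length offset, 26.92% against 22.19% with limma voom, and 25.49% (13 genes) against 16.92% without vehicle 7. The count of lower Rab genes went to 5 without vehicle 8 (9.434%, against 10.67% of all tested genes), 5 without vehicle 9 (8.929%, against 12.42%) and 4 without RGS 11 (7.843%, against 13.52%), so the calls fell among all genes as well. The median log2 fold change was 0.07 for Rab genes and −0.05 for all tested genes, and the Rab median was −0.07 with library size as the only scaling, which also moved the median of all genes to −0.19. With genes at 0 in every tumor of a group placed at their bound the medians were 0.07 and −0.03. The 8 entries not tested were Rab3c, Rab9b, Rab17, Rab19, Rab26, Rab27a, Rab38 and Rab39, of which Rab19 and Rab39 had no count in any tumor.

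**Figure D1:**
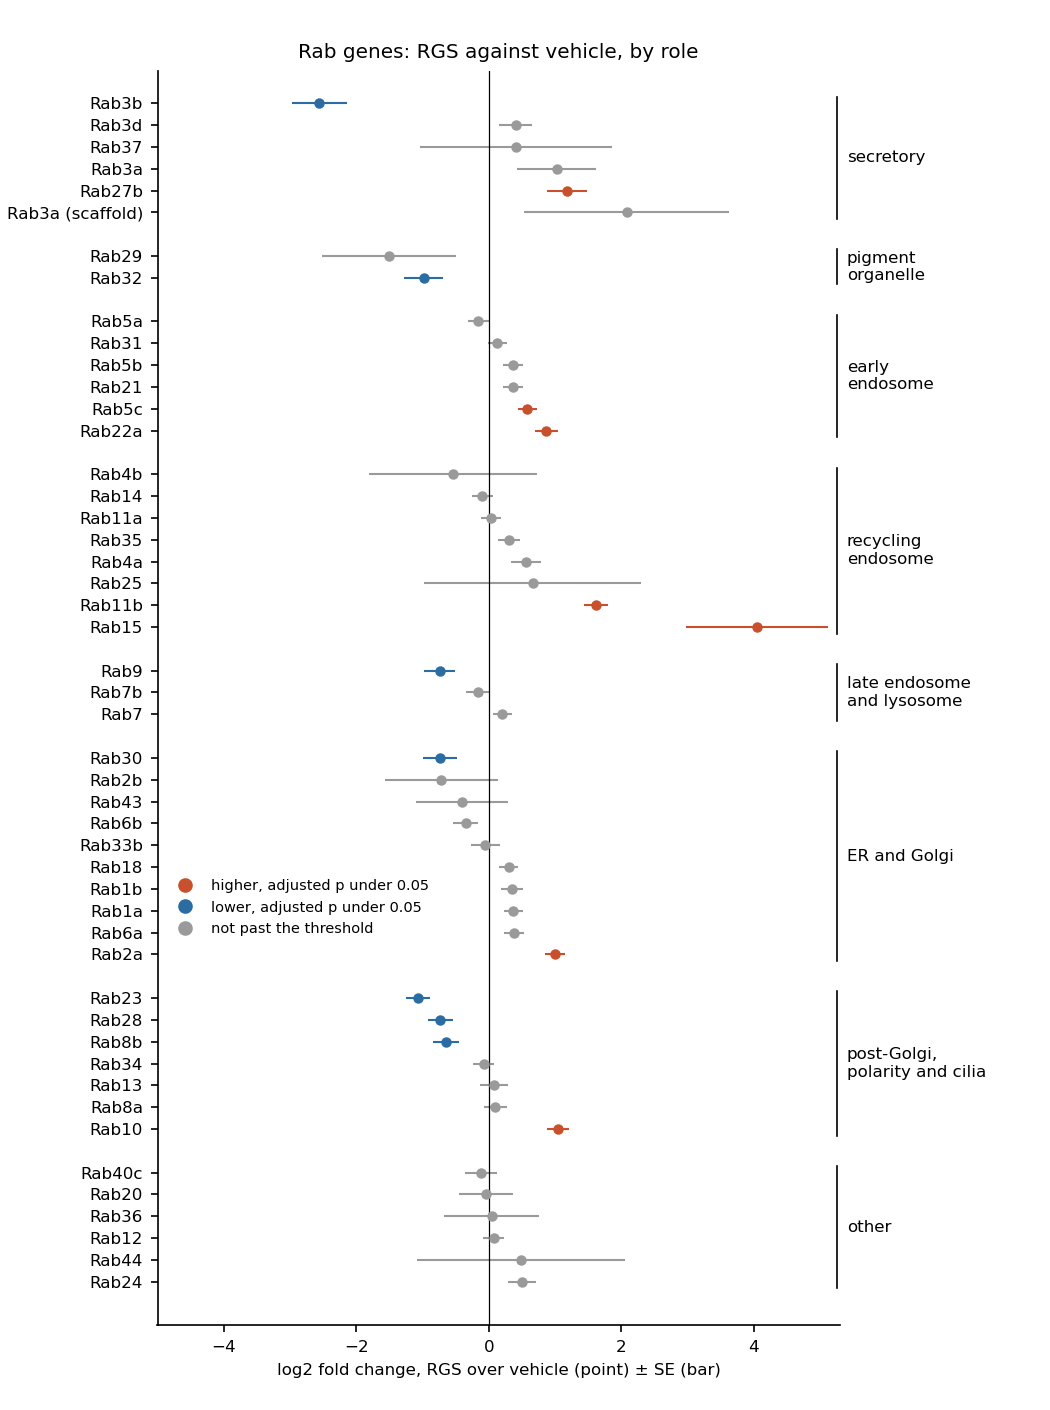
Log2 fold change of RGS over vehicle (point) with its standard error (bar) for 48 tested Rab entries, grouped by role, leaving out 4 tested entries at or under 3 counts in every tumor of a group. Members past the threshold in opposite directions sit side by side in the secretory, ER and Golgi, and post-Golgi groups.

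While the calls were split, the summed level of the family was higher in RGS. The 60 entries together measured 3687, 3583 and 3599 CPM in vehicle and 4446, 4367 and 4625 CPM in RGS. All 3 RGS tumors lay above all 3 vehicle tumors, with means of 3623 ± 56.2 and 4479 ± 132 CPM (SD, n = 3 each). The exact two-sided permutation test gave p = 0.1, the smallest value that 3 against 3 allows. As a share of unscaled counts, Rab transcripts made up 0.397%, 0.377% and 0.367% in vehicle and 0.434%, 0.419% and 0.425% in RGS, again without overlap.

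The 4 genes with the largest rises in CPM, chosen for them, were Rab10, Rab2a, Rab5c and Rab11b. They summed to 638, 568 and 551 CPM in vehicle and 1116, 1106 and 1163 CPM in RGS, which is 63.4% of the family's net difference of 856 CPM under TMM scaling. The mean levels of Rab7, Rab1a and Rab22a were higher by a further 77.0, 70.5 and 54.8 CPM, though Rab7 and Rab1a did not pass the threshold. Lower levels of other members offset part of these differences. The other 56 entries summed to 3050, 3016 and 3048 CPM in vehicle and 3330, 3261 and 3462 CPM in RGS, a ratio of means of 1.10 against 1.93 for the 4 genes, where the summed CPM of all tested genes also had a ratio of 1.10. With library size as the only scaling, the 4 genes went from a mean of 615.5 to 1074 per 1e6 counts and the other 56 entries stayed at 3189 in both group means, so rises and falls among those 56 balanced, and the rise of the 4 genes was 100.1% of the net difference of 457.9. The order of levels per kilobase of transcript moved with them. Rab7 stood first in both groups (194 and 224 CPM per kb), while Rab2a went from 4th (72.0 CPM per kb) to 2nd (144 CPM per kb) and Rab10 from 7th (56.4 CPM per kb) to 4th (116 CPM per kb). Rab18 was 2nd in vehicle at 89.9 CPM per kb, next to Rab5c at 88.7 CPM per kb, a pair whose vehicle tumors overlapped.

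The RefSeq windows of 250 bases upstream of the start (build GRCm38.p6) are shown for 5 members that carried changes in both directions. Where a gene has several listed starts the most upstream was used, as for Rab23, which has 2. CCAAT (the letters NF-Y binds), GGGCGG (a GC box) and CACGTG (an E-box) are in capitals on either strand.
Rab10, chr12:3309970-3310219, minus strand: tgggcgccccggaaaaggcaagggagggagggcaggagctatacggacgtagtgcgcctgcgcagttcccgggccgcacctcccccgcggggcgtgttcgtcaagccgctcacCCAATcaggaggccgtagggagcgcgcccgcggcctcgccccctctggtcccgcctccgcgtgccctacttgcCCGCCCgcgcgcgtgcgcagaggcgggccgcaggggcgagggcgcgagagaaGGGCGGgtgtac
Rab11b, chr17:33760487-33760736, minus strand: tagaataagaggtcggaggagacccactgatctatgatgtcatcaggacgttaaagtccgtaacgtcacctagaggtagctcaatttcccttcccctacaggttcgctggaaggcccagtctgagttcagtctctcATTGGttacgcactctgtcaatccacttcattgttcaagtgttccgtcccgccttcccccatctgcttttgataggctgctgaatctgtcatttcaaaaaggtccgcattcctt
Rab5c, chr11:100738216-100738465, minus strand: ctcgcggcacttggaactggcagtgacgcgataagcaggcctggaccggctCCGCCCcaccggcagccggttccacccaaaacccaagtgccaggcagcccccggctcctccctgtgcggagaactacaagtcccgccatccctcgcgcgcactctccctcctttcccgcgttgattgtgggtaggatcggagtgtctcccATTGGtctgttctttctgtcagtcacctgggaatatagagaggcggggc
Rab23, chr1:33719646-33719895, plus strand: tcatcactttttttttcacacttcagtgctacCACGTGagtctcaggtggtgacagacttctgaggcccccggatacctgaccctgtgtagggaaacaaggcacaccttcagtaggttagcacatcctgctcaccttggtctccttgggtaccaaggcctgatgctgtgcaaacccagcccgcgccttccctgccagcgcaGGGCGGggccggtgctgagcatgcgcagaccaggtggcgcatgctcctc
Rab3b, chr4:108878820-108879069, plus strand: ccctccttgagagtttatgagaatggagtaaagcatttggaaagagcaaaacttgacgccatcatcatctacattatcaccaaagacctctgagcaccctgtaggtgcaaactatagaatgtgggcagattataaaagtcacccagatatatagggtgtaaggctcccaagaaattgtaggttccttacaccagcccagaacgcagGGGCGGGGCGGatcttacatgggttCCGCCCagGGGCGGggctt
Windows were found for 48 of the 59 Rab symbols and 27025 genes in all, and both strands were searched. CCAAT occurred in 45.8% of Rab windows and 34.5% of all windows, among them 4 of 5 windows of higher members (Rab10, Rab11b, Rab22a and Rab5c) and 2 of 8 windows of lower members (Rab28 and Rab8b). GGGCGG occurred in 68.8% of Rab windows and in 8907 of the 27025 windows in all, in 4 of 5 higher and 5 of 8 lower members. Rab windows were also richer in G and C, with a median of 60.6% against 52.0% for all. CACGTG, whose letters MITF and TFEB bind, occurred in 8.33% of Rab windows and 6.04% of all, and Rab23 was the 1 changed member with it. TATAAA occurred in 8.33% of Rab windows and 13.0% of all, and 3 of its 4 Rab genes were lower members (Rab39b, Rab3b and Rab42). The melanocyte M-box TCATGTG occurred in 4.17% of Rab windows and 3.21% of all, the AP-1 letters TGANTCA in 2.08% and 6.85%, and the cAMP response letters TGACGTCA in 4.17% and 1.6%. No motif contains another, and a match is a description of the letters, not a binding site.

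The secretory Rabs, which dock and prime vesicles at the plasma membrane, were expressed at low levels. Of 6 tested entries, 1 was higher and 1 lower (16.7% each, against 16.3% and 16.5% of all tested genes). Rab3b measured 11.3, 11.8 and 8.56 CPM in vehicle and 2.04, 1.21 and 2.08 CPM in RGS. All RGS tumors lay far under all vehicle tumors, the largest decrease among members with at least 1 CPM in a group (log2 fold change −2.56 ± 0.42 SE, adjusted p = 0.000115, edgeR quasi-likelihood with BH adjustment). Rab27b, which acts in granule and exosome release, measured 7.34, 8.52 and 5.20 CPM in vehicle and 19.3, 12.8 and 15.5 CPM in RGS. Here every RGS tumor was above every vehicle tumor (log2 fold change 1.177 ± 0.31 SE, adjusted p = 0.00617, edgeR quasi-likelihood with BH adjustment).

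The remaining secretory members were not past the threshold or not measurable. Rab3d, of exocrine and mast cell granules, measured 12.7, 15.0 and 17.6 CPM in vehicle and 17.4, 23.6 and 19.1 CPM in RGS, groups that overlapped (log2 fold change 0.41 ± 0.25 SE, adjusted p = 0.221, edgeR quasi-likelihood with BH adjustment). Rab3a, of synaptic vesicles, measured 4.97, 3.71 and 0.559 CPM in vehicle and 5.68, 8.96 and 4.28 CPM in RGS, also with overlap (log2 fold change 1.02 ± 0.60 SE, adjusted p = 0.204, edgeR quasi-likelihood with BH adjustment). Its scaffold entry held 15, 7 and 1 counts in vehicle and 2, 40 and 1 counts in RGS, and reads shared by both copies may be split or lost between them, yet summing both entries left Rab3a not past the threshold. Rab27a, the Rab of melanosome transport, held 9, 4 and 0 counts in vehicle and 0, 0 and 6 counts in RGS, so a difference was not detectable at this depth. Rab3c held at most 3 counts in every tumor, Rab26 at most 25 and Rab37 at most 19.

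Markers of neurons, which share the Rab3 machinery, differed between the groups. The 6 neuron markers summed to 51.5, 46.0 and 45.3 CPM in vehicle and 172, 191 and 203 CPM in RGS. Of these, 5 were tested, with 3 higher and 1 lower, against 16.3% and 16.5% of all tested genes. Stmn2 did not pass the threshold, and Rbfox3, not tested, held 4 counts in vehicle 7 and none in any other tumor. The most abundant by group mean was Tubb3, and the synaptic vesicle gene Syn1 measured 13.7, 11.2 and 5.98 CPM in vehicle and 76.7, 64.2 and 90.1 CPM in RGS. Syt1, also of synaptic vesicles, was the lower one, at 1.17, 0.606 and 1.76 CPM in vehicle and 0.0947, 0 and 0 CPM in RGS. Their part in the secretory Rab values was not tested. Mast cell markers summed to at most 0.24 CPM in any tumor, with 5 of 6 at 0 throughout.

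Of the pigment organelle Rabs, Rab32 was the 1 with a sizeable level. Rab32, which also anchors protein kinase A at mitochondria, measured 18.3, 12.9 and 19.1 CPM in vehicle and 9.85, 9.12 and 6.42 CPM in RGS. The RGS tumors were all lower, though vehicle 8 came near them (log2 fold change −0.98 ± 0.29 SE, adjusted p = 0.0142, edgeR quasi-likelihood with BH adjustment). The call was lost without vehicle 9 (adjusted p = 0.0580 with edgeR) and with limma voom (adjusted p = 0.05045), over a range of 0.00680 to 0.0580 across alternatives. Rab38, the close relative of Rab32, held 5 counts in vehicle 7 and none in any other tumor. Rab29, a relative that acts at the trans-Golgi and lysosome, measured 0.828, 3.53 and 2.11 CPM in vehicle and 1.75, 0.226 and 0.245 CPM in RGS, with overlap and no call in edgeR (adjusted p = 0.270), though limma voom called it lower (adjusted p = 0.0334, over a range up to 0.690 across alternatives).

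Rab32 works with the BLOC complexes, which sort cargo to lysosome-related organelles and include its GEF, BLOC-3. In a list of 17 genes of BLOC-1, BLOC-2, AP-3 and related sorting factors, which leaves out BLOC-3, 0 were higher and 4 lower with edgeR (23.5%, against 16.3% higher and 16.5% lower of all tested genes), with a median log2 fold change of −0.03. For increases in this list, 0 had an unadjusted p under 0.05, and the calls were 0 with DESeq2 and 1 with limma voom. The BLOC-3 subunits, counted with the GEFs and named after their values were seen, changed in opposite directions. Hps1 measured 35.1, 34.8 and 26.4 CPM in vehicle and 44.5, 54.4 and 51.6 CPM in RGS, all above vehicle (log2 fold change 0.64, adjusted p = 0.0140, edgeR quasi-likelihood with BH adjustment). Hps4 measured 24.1, 19.4 and 20.7 CPM in vehicle and 11.3, 15.1 and 8.20 CPM in RGS, all below vehicle (log2 fold change −0.89, adjusted p = 0.0161, edgeR quasi-likelihood with BH adjustment). Bloc1s2, a subunit shared by BLOC-1 and BORC, measured 34.4, 57.2 and 77.6 CPM in vehicle and 20.1, 19.7 and 26.9 CPM in RGS, with all RGS tumors below (log2 fold change −1.34, adjusted p = 0.000411, edgeR quasi-likelihood with BH adjustment). Hps3 of BLOC-2 (log2 fold change −0.82) and Bloc1s4 of BLOC-1 (−0.79) were also lower. With the gene length offset Bloc1s2 and Bloc1s4 measured −0.84 and −0.50.

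Early endosomal Rabs, which receive cargo from the plasma membrane, included 2 higher members of 6 and 0 lower ones with edgeR, against 16.3% and 16.5% of all tested genes. At an unadjusted p under 0.05, with DESeq2 and with limma voom the lower count was also 0. The higher count was 4 with DESeq2, limma voom, the gene length offset or vehicle 7 left out. These fits also called Rab5b and Rab21. In the same order of fits, 18.02%, 22.19%, 20.01% and 16.92% of all tested genes were higher. Rab5c, 1 of 3 Rab5 isoforms that drive early endosome fusion, measured 179.5, 206 and 198 CPM in vehicle and 268, 308 and 298 CPM in RGS. The groups were well apart, with means of 195 ± 13.8 and 291 ± 20.6 CPM (SD, n = 3 each) and a log2 fold change of 0.58 ± 0.15 SE (adjusted p = 0.00521, edgeR quasi-likelihood with BH adjustment). Rab22a, which acts in endosomal sorting and recycling, measured 76.4, 52.9 and 69.4 CPM in vehicle and 119.7, 111 and 133 CPM in RGS, again without overlap (log2 fold change 0.87 ± 0.17 SE, adjusted p = 0.000728, edgeR quasi-likelihood with BH adjustment). Rab5a, the isoform most often taken as the early endosome marker, did not move with Rab5c. It measured 106, 101 and 108 CPM in vehicle and 93.4, 85.2 and 104 CPM in RGS, groups that overlapped (log2 fold change −0.16 ± 0.16 SE, adjusted p = 0.471, edgeR quasi-likelihood with BH adjustment). Rab5b (log2 fold change 0.36, adjusted p = 0.0657 with edgeR) and Rab21, which carries integrins (0.36, adjusted p = 0.0702), had all RGS tumors above all vehicle tumors and missed the threshold, and so did Rab31 (0.13).

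The recycling endosome group, which returns cargo to the surface, held the largest increases past the threshold by log2 fold change. Rab11b measured 47.6, 38.9 and 30.7 CPM in vehicle and 114, 115 and 132 CPM in RGS. The lowest RGS tumor was more than 2 times the highest vehicle tumor, with means of 39.0 ± 8.46 and 120.4 ± 9.88 CPM (SD, n = 3 each), and the log2 fold change was 1.62 ± 0.18 SE (adjusted p = 2.14e-06, edgeR quasi-likelihood with BH adjustment). Its paralog Rab11a, the widely expressed recycling Rab, measured 108, 126 and 134 CPM in vehicle and 126, 125 and 126 CPM in RGS. These groups overlapped fully (log2 fold change 0.03 ± 0.15 SE, adjusted p = 0.887, edgeR quasi-likelihood with BH adjustment), and the sign of this small value turned with library size as the only scaling (−0.10). Rab15, which acts in transferrin receptor recycling and is best known from neurons, held 0, 0 and 31 counts in vehicle and 85, 150 and 95 counts in RGS. All RGS tumors were above vehicle, whose counts came from replicate 9 alone, so that vehicle stood at 0 without it (log2 fold change 4.04 ± 1.07 SE, adjusted p = 0.00683, edgeR quasi-likelihood with BH adjustment), and the call was lost with DESeq2 (adjusted p = 0.184, over a range of 3.21e-09 to 0.184 across alternatives). Rab4a (log2 fold change 0.56, adjusted p = 0.0683 with edgeR) and Rab35 (0.30, adjusted p = 0.178) were above vehicle in all RGS tumors without passing the threshold, and Rab14, Rab4b and Rab25 overlapped between groups.

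**Figure D2:**
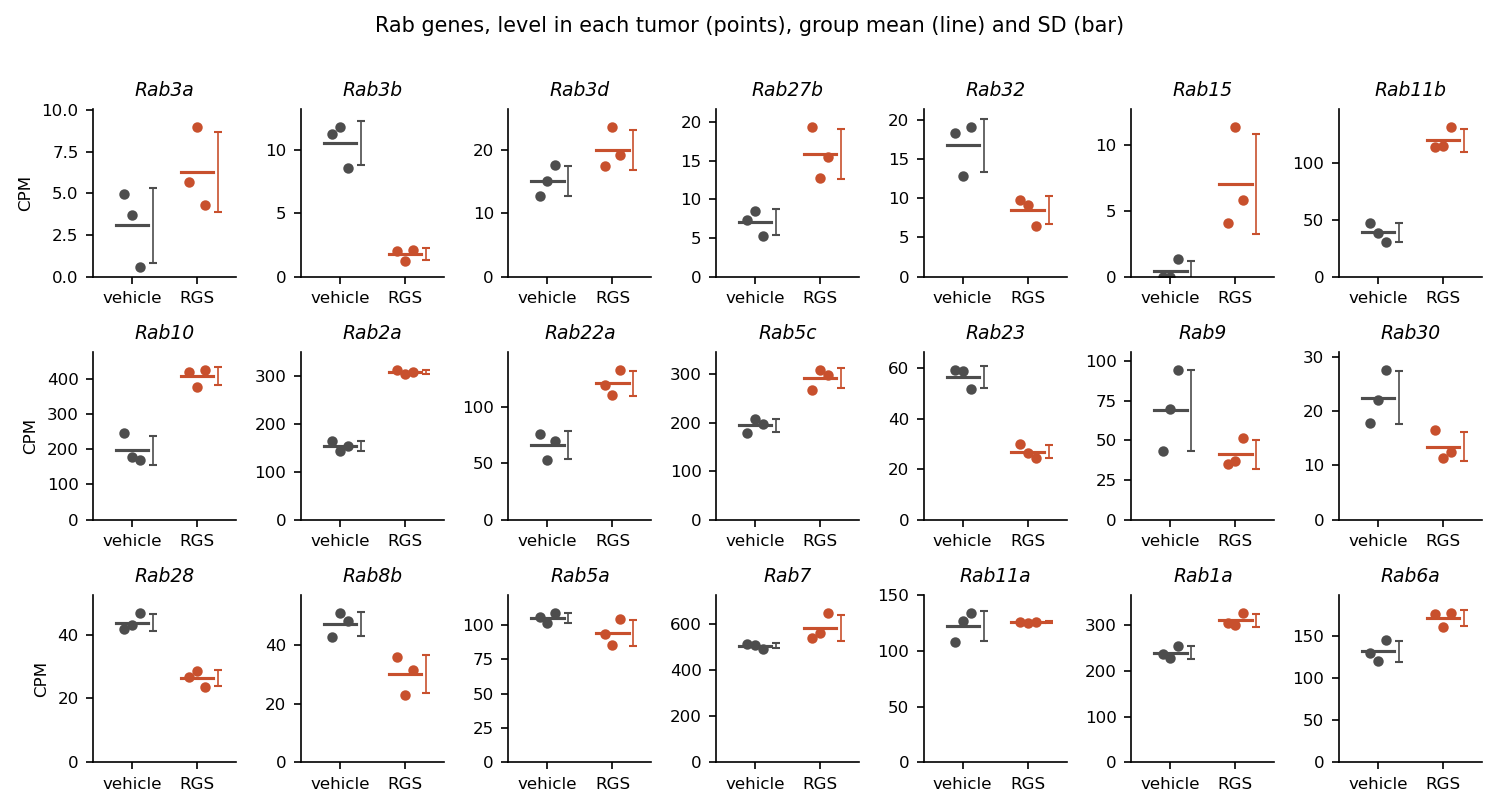
CPM in each tumor (points) with the group mean (line) and SD (bar) for 21 Rab genes, vehicle in grey and RGS in red, each panel on its own axis from 0. Rab11b, Rab10 and Rab2a show a gap between the groups, while Rab11a and Rab5a overlap.

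Late endosomal and lysosomal Rabs held the most abundant member. Rab7, which drives fusion with lysosomes, measured 513, 512 and 495 CPM in vehicle and 542, 561 and 648 CPM in RGS. All RGS tumors were above vehicle, but the difference did not pass the threshold (log2 fold change 0.20 ± 0.15 SE, adjusted p = 0.305, edgeR quasi-likelihood with BH adjustment). Rab9, which returns mannose 6-phosphate receptors from late endosomes to the Golgi, measured 43.1, 69.7 and 94.2 CPM in vehicle and 34.99, 37.1 and 51.6 CPM in RGS. Vehicle 7 lay inside the RGS range, so the groups overlapped despite the call (log2 fold change −0.74 ± 0.24 SE, adjusted p = 0.0223, edgeR quasi-likelihood with BH adjustment). The Rab9 call was lost without vehicle 9 (log2 fold change −0.45, adjusted p = 0.158 with edgeR), without RGS 10 (0.122) and without RGS 11 (0.0725), over a range of 0.000274 to 0.158 across alternatives. Rab7b overlapped between groups, and Rab9b held 12 counts in vehicle 8 alone.

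At the ER and Golgi, 1 of 11 members was higher and 1 was lower (9.09% each, against 16.3% and 16.5% of all tested genes). Rab2a, which tethers membranes between ER and Golgi and also aids lysosome fusion, measured 165, 143 and 153 CPM in vehicle and 311, 304 and 308 CPM in RGS. The RGS tumors were nearly equal and far above vehicle, with means of 154 ± 10.8 and 308 ± 3.29 CPM (SD, n = 3 each) and a log2 fold change of 1.002 ± 0.15 SE (adjusted p = 3.78e-05, edgeR quasi-likelihood with BH adjustment). Rab1a, which carries cargo from ER to Golgi, measured 238, 228 and 255 CPM in vehicle and 305, 302 and 326 CPM in RGS, without overlap (log2 fold change 0.37 ± 0.14 SE, adjusted p = 0.0561, edgeR quasi-likelihood with BH adjustment). Rab6a, of transport within and from the Golgi, measured 129.8, 120.2 and 145 CPM in vehicle and 176, 160.0 and 177 CPM in RGS, also without overlap (log2 fold change 0.38 ± 0.15 SE, adjusted p = 0.0620, edgeR quasi-likelihood with BH adjustment), and 708 of its exon bases lie opposite Mrpl48. Both missed the threshold, as did Rab1b (log2 fold change 0.35) and Rab18 of the ER and lipid droplets (0.30), each with all RGS tumors above vehicle. Alternatives moved some of these past it, Rab1a in 6, Rab6a in 4 and Rab1b and Rab18 in 3 each. With DESeq2 3 of the 11 ER and Golgi members were higher, where 18.02% of all tested genes were. With limma voom 5 of the 11 were higher, where 22.19% of all tested genes were. Across alternatives the adjusted p ranged from 0.00311 to 0.249 for Rab1a and from 0.00363 to 0.258 for Rab6a. Rab30, a Golgi Rab, measured 17.8, 22.1 and 27.5 CPM in vehicle and 16.4, 11.3 and 12.5 CPM in RGS. Its RGS tumors were lower, with RGS 10 close to vehicle 7 (log2 fold change −0.74 ± 0.26 SE, adjusted p = 0.0331, edgeR quasi-likelihood with BH adjustment), and the call was lost when vehicle 8, vehicle 9, RGS 11 or RGS 12 was left out (adjusted p up to 0.175 with edgeR). Rab2b, Rab6b, Rab33a, Rab33b and Rab43 overlapped between groups.

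The post-Golgi, polarity and cilia group held 1 higher and 3 lower members of 7 (14.3% and 42.9%, against 16.3% and 16.5% of all tested genes). Rab10, which carries vesicles to the basolateral and dendritic surface and GLUT4 to the plasma membrane, measured 246, 179 and 169.7 CPM in vehicle and 422, 379 and 426 CPM in RGS. All RGS tumors were above vehicle, with means of 198 ± 41.5 and 409 ± 25.9 CPM (SD, n = 3 each) and a log2 fold change of 1.04 ± 0.17 SE (adjusted p = 8.86e-05, edgeR quasi-likelihood with BH adjustment). The opposite-strand gene Rab10os shares 143 of its exon bases and held at most 707 counts against at least 3946 for Rab10. Rab23, a brake on Hedgehog signaling tied to the primary cilium, measured 59.2, 58.8 and 51.7 CPM in vehicle and 29.8, 26.5 and 24.5 CPM in RGS. Its RGS tumors were all far below (log2 fold change −1.07 ± 0.18 SE, adjusted p = 0.000188, edgeR quasi-likelihood with BH adjustment). Rab28, found at the cilium and mutated in a cone-rod dystrophy, measured 41.6, 42.9 and 46.6 CPM in vehicle and 26.8, 28.6 and 23.6 CPM in RGS, without overlap (log2 fold change −0.73 ± 0.19 SE, adjusted p = 0.00606, edgeR quasi-likelihood with BH adjustment).

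Rab8b, which with Rab8a carries Golgi cargo to the surface and the cilium, measured 42.8, 51.0 and 48.4 CPM in vehicle and 35.9, 23.1 and 31.5 CPM in RGS. The RGS tumors were lower (log2 fold change −0.65 ± 0.20 SE, adjusted p = 0.0183, edgeR quasi-likelihood with BH adjustment), and the call was lost without vehicle 8 or without RGS 11 (adjusted p up to 0.108 with edgeR). Rab8a (log2 fold change 0.10), Rab13 of tight junctions (0.07) and Rab34 of cilium formation (−0.08) overlapped between groups. Among the members given no single role above, Rab42 held 11, 22 and 29 counts in vehicle and Rab39b, a neuronal Rab, held 32, 18 and 7 counts, and both had none in any RGS tumor. Against the highest floor of 3 counts per RGS library, Rab42 was at least 3.46-fold lower and Rab39b at least 2.74-fold lower, and each call was lost in 5 of 6 fits that left out a tumor. Rab24, of autophagy, was above vehicle in all RGS tumors without passing the threshold (log2 fold change 0.50, adjusted p = 0.0812 with edgeR), and 1258 of its exon bases lie opposite Prelid1. Rab12, Rab20, Rab36, Rab40b, Rab40c and Rab44 overlapped between groups.

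Paralogs are compared most directly as a ratio within each tumor, on counts per kilobase, where scaling between libraries drops out. Of 8 pairs of lettered paralogs with at least 5 CPM in both groups, 5 had ratios that did not overlap between vehicle and RGS. The pairs among Rab5a, Rab5b and Rab5c share members, so the 8 pairs are not independent. Among all tested single genes 45.8% do not overlap, and the share among other pairs of genes was not measured. Each of the 5 gave the smallest exact two-sided permutation p that 3 against 3 allows, 0.1. The ratio of Rab11b to Rab11a was 0.217, 0.151 and 0.112 in vehicle and 0.445, 0.452 and 0.513 in RGS, 3.04 times higher by the means of the log2 ratios. Per kilobase of gene model Rab11b stayed under Rab11a in every tumor while its share rose, although in CPM it was above Rab11a in RGS 12 (132 against 126 CPM). The ratio of Rab5c to Rab5a was 4.08, 4.90 and 4.38 in vehicle and 6.90, 8.68 and 6.88 in RGS, and that of Rab5b to Rab5a was 1.67, 1.76 and 1.49 in vehicle and 2.36, 2.67 and 2.08 in RGS. Both ratios place Rab5a lower relative to its isoforms in all RGS tumors. The ratio of Rab8b to Rab8a was 0.556, 0.649 and 0.721 in vehicle and 0.443, 0.345 and 0.349 in RGS. The ratio of Rab6b to Rab6a was 0.505, 0.392 and 0.291 in vehicle and 0.268, 0.229 and 0.212 in RGS. In these last pairs the ratio was lower in all RGS tumors, while Rab6b itself overlapped between groups. Rab1b to Rab1a, Rab5c to Rab5b and Rab7b to Rab7 overlapped between groups (exact permutation p of 0.9, 0.2 and 0.2).

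**Figure D3:**
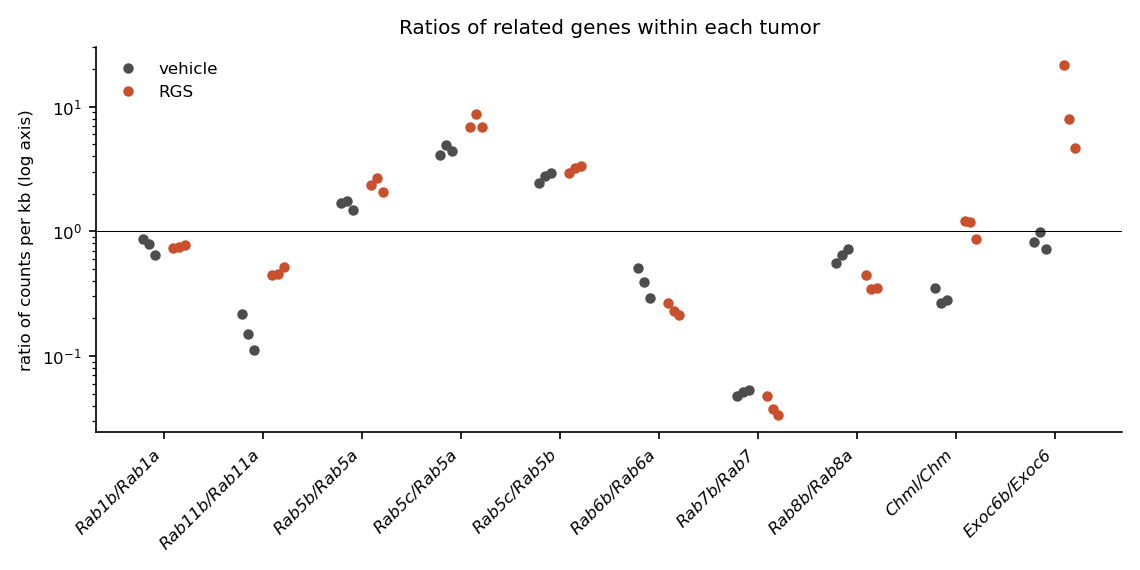
Ratio of counts per kb between related genes in each tumor on a log axis, vehicle in grey and RGS in red, for 8 pairs of Rab paralogs and 2 pairs of regulators chosen after their values were seen. The points of Rab11b over Rab11a separate the groups, and those of Rab1b over Rab1a overlap.

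The proteins that switch, load and read Rabs were examined from lists holding 184 genes, of which 180 were found and 168 tested. Of these, 33 were higher (19.6%, against 16.3% of all tested genes) and 28 were lower (16.7%, against 16.5%), with a median log2 fold change of 0.13 against −0.05 for all tested genes. With library size as the only scaling the counts were 21 higher (12.5%, against 12.18% of all tested genes) and 34 lower (20.24%, against 20.53%), a shift shared by all genes. Among the list genes named by size of change, up to 3 a direction from each list, 12 lost their call under at least 1 alternative, most often with 1 tumor left out (Acap2, Arl6ip5, Chm, Hps3, Mical3, Mon1a, Ocrl, Osbpl1a, Plekhm2, Rab11fip1, Rab11fip5 and Rabac1), and Rab11fip1 went to 0.35 without vehicle 9. Hps1 and Hps4, named outside that rule, lost their calls in 3 and 1 of 19 alternative fits.

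Of 14 tested genes that load Rabs onto membrane, 3 were higher and 2 lower (21.4% and 14.3%, against 16.3% and 16.5% of all tested genes), with a median log2 fold change of −0.01. Chm, the Rab escort protein that presents new Rabs for prenylation, measured 31.7, 35.1 and 34.9 CPM in vehicle and 23.0, 19.9 and 17.4 CPM in RGS. Chml, its paralog, measured 11.4, 9.59 and 10.2 CPM in vehicle and 28.4, 24.3 and 15.6 CPM in RGS. Neither pair of groups overlapped, and Chm fell (log2 fold change −0.75, adjusted p = 0.00899) while Chml rose (1.13, adjusted p = 0.00313, edgeR quasi-likelihood with BH adjustment), although Chml shares 461 exon bases with Opn3 on the same strand, whose own counts went from at most 46 in vehicle to at least 219 in RGS. The ratio of Chml to Chm was 0.348, 0.266 and 0.284 in vehicle and 1.20, 1.19 and 0.873 in RGS. Yipf3, a Golgi membrane protein of the Yip1 family, measured 91.8, 80.4 and 81.3 CPM in vehicle and 179.6, 200.2 and 182 CPM in RGS, all above vehicle (log2 fold change 1.15, adjusted p = 1.37e-05, edgeR quasi-likelihood with BH adjustment). Rabac1, a Golgi protein that binds prenylated Rabs, was also higher (log2 fold change 0.67), and its relative Arl6ip5 was lower (−0.54).

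Of 41 tested GEFs, 10 were higher and 9 lower (24.4% and 22.0%, against 16.3% and 16.5% of all tested genes), with a median log2 fold change of 0.07. Madd, the GEF of Rab3 and Rab27, measured 21.4, 18.5 and 13.9 CPM in vehicle and 42.1, 36.4 and 52.2 CPM in RGS. All RGS tumors were above vehicle (log2 fold change 1.28, adjusted p = 0.000214, edgeR quasi-likelihood with BH adjustment), the same direction as Rab27b and opposite to Rab3b. Trappc1, of the TRAPP complexes that activate Rab1 and Rab11, measured 18.1, 19.5 and 18.7 CPM in vehicle and 33.05, 36.1 and 44.6 CPM in RGS, without overlap (log2 fold change 1.02, adjusted p = 0.000891, edgeR quasi-likelihood with BH adjustment). Mon1a, part of the Rab7 GEF, was higher too (log2 fold change 1.02). Among the DENN domain GEFs, Dennd1b, which acts on Rab35 (log2 fold change −1.03), and Dennd4c, which acts on Rab10 (−0.97), were lower, so Rab10 and this GEF moved apart. Dennd2d held 78, 70 and 64 counts in vehicle and 2, 0 and 0 counts in RGS, and 771 of its exon bases lie opposite Cept1.

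Of 37 tested GAPs, 7 were higher and 2 lower (18.9% and 5.41%, against 16.3% and 16.5% of all tested genes), with a median log2 fold change of 0.30. Tbc1d1, a GAP for the Rabs of GLUT4 vesicles, Rab10 among them, measured 103, 79.6 and 82.8 CPM in vehicle and 271, 276 and 215 CPM in RGS. It rose in all RGS tumors (log2 fold change 1.52 ± 0.17 SE, adjusted p = 1.45e-06, edgeR quasi-likelihood with BH adjustment), together with its target Rab10. Tbc1d9 measured 4.34, 1.92 and 1.42 CPM in vehicle and 15.7, 12.1 and 15.7 CPM in RGS, also without overlap (log2 fold change 2.48, adjusted p = 0.000145, edgeR quasi-likelihood with BH adjustment). Sgsm3 was higher (log2 fold change 1.25). In the other direction, Tbc1d31, a centriolar satellite protein, measured 94.2, 91.5 and 77.5 CPM in vehicle and 32.3, 26.4 and 41.9 CPM in RGS. Every RGS tumor was far lower (log2 fold change −1.39, adjusted p = 2.14e-05, edgeR quasi-likelihood with BH adjustment). Tbc1d15, a GAP for Rab7 at mitochondria and lysosomes, was lower as well (log2 fold change −0.75).

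**Figure D4:**
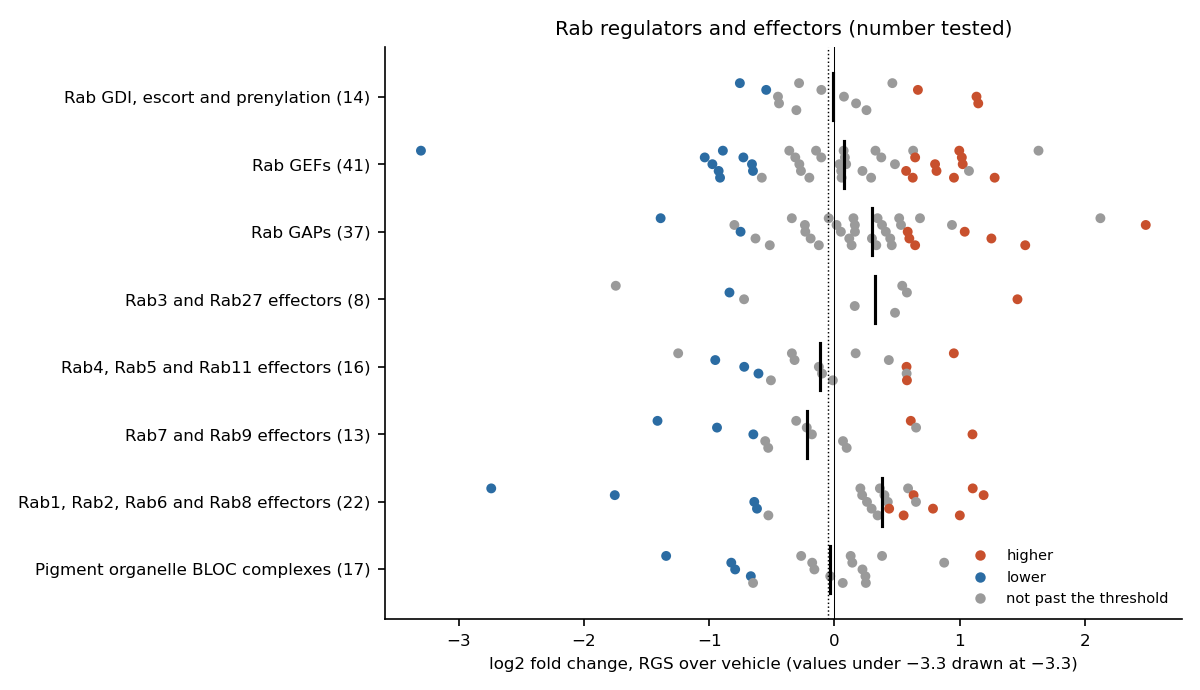
Log2 fold change of RGS over vehicle for each tested gene (points) of 8 lists of Rab regulators and effectors, with the list's median (bar) and the median of all tested genes (dotted line, −0.05), values under −3.3 being drawn at −3.3. Higher and lower genes occur in 7 lists, and the list of BLOC-1, BLOC-2 and AP-3 genes holds 4 lower and 0 higher under TMM scaling, with the BLOC-3 subunits drawn among the GEFs, 1 higher and 1 lower.

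Effectors read the active Rab, and their lists are to be read against the same 16.3% higher and 16.5% lower of all tested genes. Of 8 tested effectors of Rab3 and Rab27, 1 was higher and 1 lower (12.5% each), with a median log2 fold change of 0.32. Rims2, an active-zone protein that binds Rab3, measured 75.2, 57.3 and 68.9 CPM in vehicle and 167, 198 and 190.0 CPM in RGS, all above vehicle (log2 fold change 1.46 ± 0.16 SE, adjusted p = 1.85e-06, edgeR quasi-likelihood with BH adjustment). Myo5a, the motor that Rab27a uses on melanosomes, measured 135, 93.0 and 94.4 CPM in vehicle and 65.0, 64.6 and 50.7 CPM in RGS. It was lower in every RGS tumor (log2 fold change −0.84 ± 0.18 SE, adjusted p = 0.00173, edgeR quasi-likelihood with BH adjustment), beside a Rab27a at the detection limit.

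Of 16 tested effectors of Rab4, Rab5 and Rab11, 3 were higher and 3 lower (18.8% each), with a median log2 fold change of −0.11. Rabep1, which couples the Rab5 GEF to Rab5, measured 93.0, 76.3 and 77.7 CPM in vehicle and 49.4, 31.8 and 46.3 CPM in RGS, all below vehicle (log2 fold change −0.95, adjusted p = 0.000774, edgeR quasi-likelihood with BH adjustment). The Rab5 effector Appl1 (log2 fold change −0.72) and Acap2, which binds Rab35 (−0.61), were lower too, opposite to Rab5c. Micall1 of recycling tubules (log2 fold change 0.95) and the Rab11 effectors Rab11fip1 and Rab11fip5 (0.58 each) were higher, in the direction of Rab11b, though Rab11fip1 lost its call in 8 alternatives.

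Of 13 tested effectors of Rab7 and Rab9, 2 were higher and 3 lower (15.4% and 23.1%), with a median log2 fold change of −0.22. Plekhm1, which tethers Rab7 membranes for fusion, measured 43.6, 32.7 and 23.6 CPM in vehicle and 78.9, 64.0 and 71.9 CPM in RGS, all above vehicle (log2 fold change 1.10, adjusted p = 0.000491, edgeR quasi-likelihood with BH adjustment). Plekhm2, which links lysosomes to kinesin, was higher as well (log2 fold change 0.61). Vps35, the core of the retromer coat that Rab7 recruits, measured 344, 406 and 428 CPM in vehicle and 166, 133 and 143 CPM in RGS. The highest RGS tumor lay far below the lowest vehicle tumor (log2 fold change −1.41 ± 0.16 SE, adjusted p = 1.87e-06, edgeR quasi-likelihood with BH adjustment). Its partner Vps26a (log2 fold change −0.65) and the late endosomal sterol sensor Osbpl1a (−0.94) fell as well.

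Of 22 tested effectors of Rab1, Rab2, Rab6 and Rab8, 7 were higher and 4 lower (31.8% and 18.2%), with a median log2 fold change of 0.38. Gorasp2, a Golgi stacking protein that binds the Rab2 effector golgin-45, measured 109, 90.5 and 81.3 CPM in vehicle and 227, 203 and 211 CPM in RGS, without overlap and in the direction of Rab2a (log2 fold change 1.19, adjusted p = 1.52e-05, edgeR quasi-likelihood with BH adjustment). Kif1c, a kinesin that binds Rab6, measured 233, 167 and 149 CPM in vehicle and 399.7, 394 and 386 CPM in RGS, also without overlap (log2 fold change 1.10, adjusted p = 6.64e-05, edgeR quasi-likelihood with BH adjustment). Mical3, which helps Rab6 and Rab8 carriers fuse, was higher (log2 fold change 1.001). Exoc6, the exocyst subunit that binds Rab10, Rab11 and Rab8, measured 10.3, 7.20 and 10.2 CPM in vehicle and 0.568, 1.36 and 2.26 CPM in RGS. It fell in every RGS tumor (log2 fold change −2.74 ± 0.51 SE, adjusted p = 0.000414, edgeR quasi-likelihood with BH adjustment), and the ratio of its paralog Exoc6b to it was 0.822, 0.995 and 0.723 in vehicle and 21.8, 8.04 and 4.66 in RGS. Kif20a, a Rab6-binding kinesin that acts in mitosis, was lower (log2 fold change −1.75), with 1271 exon bases opposite Cdc23, and Ocrl, a lipid phosphatase of Rab-marked membranes, was lower too (−0.64).

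Markers of other cell types also differed between the groups, and their part in the Rab values was not tested. The 10 leukocyte and macrophage markers summed to 313, 252 and 246 CPM in vehicle and 1068, 1096 and 1008 CPM in RGS, mostly from Laptm5 (219, 158 and 153 CPM in vehicle and 916, 952 and 834 CPM in RGS), a lysosomal gene. Cd53 was higher as well (29.3, 29.8 and 34.1 CPM in vehicle and 86.3, 75.0 and 85.6 CPM in RGS), Cd68 did not pass the threshold, and the defining markers Ptprc and Adgre1 had no count in any tumor. Fibroblast markers summed to 283, 222 and 216 CPM in vehicle and 165, 154 and 153 CPM in RGS, led by Pdgfra. Of the 6 listed, 5 were tested, with 1 higher and 3 lower, against 16.3% and 16.5% of all tested genes. Keratinocyte and epithelial markers summed to 0.542, 0.962 and 1.72 CPM in vehicle and 12.1, 20.5 and 28.8 CPM in RGS. They were led by Krt10 in vehicle and by Ivl in RGS. The RGS sums came mostly from Ivl (5.87, 11.4 and 19.6 CPM) and Krt76 (2.65, 6.33 and 5.94 CPM), which had no count in vehicle. Krt10 did not pass the threshold, Krt1 had no count in any tumor, and Krt5 and Krt14 had none in any RGS tumor. Endothelial markers, led by Vwf in the vehicle tumors and RGS 11 and by Cdh5 in RGS 10 and 12, summed to 2.97, 4.06 and 2.28 CPM in vehicle and 9.61, 6.55 and 13.8 CPM in RGS. The other lists were low in every tumor. Trac of T cells had no count in vehicle and measured 1.42, 1.21 and 0.612 CPM in RGS, at least 8.37-fold higher and past the threshold. Des of muscle had no count in vehicle and measured 1.14, 0.377 and 0.306 CPM in RGS, at least 4.70-fold higher and past the threshold. Its RGS counts were 24, 5 and 5, so the bound rests mostly on RGS 10. The muscle genes Tnnt3 (log2 fold change −0.80) and Ttn (−0.70) were below vehicle in all RGS tumors without passing the threshold. The muscle list summed to 5.94, 6.81 and 5.72 CPM in vehicle and 5.68, 3.54 and 3.79 CPM in RGS. Neutrophil markers reached at most 0.673 CPM, T and NK cell markers 1.42 CPM with 4 of 6 at 0 throughout, skeletal muscle markers 6.81 CPM and adipocyte markers 15.2 CPM, mostly Fabp4.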

How the data were processed

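The values start from the gene counts deposited by the authors. The submitters' processing notes name cutadapt 1.18, FastQC 0.11.7, STAR 2.7.1a, featureCounts 1.6.4 and build mm10. The strand setting, the handling of multi-mapping reads and the annotation release are not given in the sources used here, so counts of genes that overlap another gene are uncertain. Of 40166 gene IDs, 38971 matched GENCODE M21 in position and length.

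Genes with a median count of at least 5 in 1 group were kept and tested with edgeR 4.0.16 (TMM factors, quasi-likelihood, Benjamini-Hochberg over all 15355 genes, threshold 0.05) in R 4.3.3. Folds against a group at 0 use a floor of 3 counts per library, which covers counting error only. Alternatives used DESeq2 1.42.0, limma 3.58.1 (voom), other scalings, filters and thresholds, a gene length offset, thinning, no mitochondrial genes and leaving out each tumor. Summing the Rab3a entries was chosen after seeing the data.

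The members, their roles and the lists of regulators, effectors and markers were chosen with earlier results of these data known. Values per tumor are given for Rab3, Rab27, Rab32 and Rab38 genes, for the 6 largest called changes of other members in each direction with at least 1 CPM, for Rab5a, Rab7, Rab11a, Rab1a and Rab6a, and from each list up to 3 called genes a direction are named, the larger changes with their values. The motifs, the regulator ratios, Hps1 and Hps4, the summed group of 4 genes, and the Rab-like, exocyst, intraflagellar transport and retromer lists were chosen after their values were seen. A gene of the list of chaperones is not reported here and enters no count of that list.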

Additional observations from a re-analysis of the deposited data

How the results depend on the processing

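Over up to 19 alternative fits at the same threshold, the 16 called Rab genes gave 301 values, of which 278 kept direction and call, 23 lost the threshold and 0 reversed, and 9 genes kept both in every fit run for them. The named regulators gave 722 values, with 35 lost and 0 reversed. RGS libraries were shallower, which limits members with few counts.

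The Rab median (0.07) was −0.066 with library size only, −0.007483 with no filter, 0.032 with upper-quartile factors, 0.16 with the gene length offset and 0.00397 with limma voom, and −0.0526 to 0.12 with a tumor left out. The 7 higher Rab genes became 15 with the length offset (28.85%, all genes 20.01%), 14 with voom (26.92%, all genes 22.19%) and 7 to 13 with a tumor left out (25.49% without vehicle 7, all genes 16.92%), and 5 when the log2 fold change also had to reach 1 in size. The 9 lower became 3 at adjusted p under 0.01, 4 under that size limit and 4 to 8 with a tumor left out. All higher genes (2503) became 1607 and 1168 at those thresholds, and all lower genes (2533) became 1562 and 1450. The regulators' 33 higher became 21 with library size only (12.5%, all genes 12.18%) and 50 with voom (29.76%, all genes 22.19%). At those thresholds they became 20 (11.9%, all genes 10.47%) and 14 (8.333%, all genes 7.607%). With a tumor left out they ranged from 23 to 46. The 23 came without vehicle 8 (13.61%, all genes 11.04%) and without RGS 10 (13.61%, all genes 12.86%). The 46 came without vehicle 7 (27.54%, all genes 16.92%). Their 28 lower became 18 (10.71%, all genes 10.17%) and 7 (4.167%, all genes 9.443%) at those thresholds. The median of all genes was −0.05, −0.19 with library size only and 0.06 with the length offset. The cause was not tested.

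Among members not called, 15 reversed under some alternative, with adjusted p never under 0.428, and 9 passed the threshold under some alternative (Rab18, Rab1a, Rab1b, Rab21, Rab24, Rab29, Rab4a, Rab5b and Rab6a, 30 of 646 values). With library size only, log2 fold changes were −0.10 for Rab11a, −0.012 for Rab31, −0.068 for Rab12, −0.081 for Rab36, −0.064 for Rab13 and −0.047 for Rab8a. With upper-quartile factors they were −0.006667 for Rab11a and −0.00454 for Rab36. Voom gave −0.006411 for Rab11a, −0.49 for Rab36 and −0.44 for Rab25. The length offset gave 0.041 for Rab33b, 0.12 for Rab20 and 0.036 for Rab34, and thinning gave 0.079 for Rab20. With a tumor left out, Rab11a ranged from −0.0526 to 0.10, Rab33b from −0.13 to 0.022, Rab43 from −1.002 to 0.0296, Rab12 from −0.0386 to 0.12, Rab20 from −0.38 to 0.18, Rab36 from −0.88 to 0.39, Rab40c from −0.31 to 0.0634, Rab44 from −1.23 to 0.99, Rab13 from −0.055 to 0.24, Rab34 from −0.18 to 0.0424, Rab8a from −0.0235 to 0.20, Rab4b from −3.25 to 0.26 and Rab37 from −0.0533 to 1.97. The cause was not tested.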

Other observations

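The retromer coat, which carries cargo from endosomes back to the Golgi or surface, was lower for 3 of its 4 listed subunits (75.0%, against 16.5% of all tested genes), a list chosen after its values were seen. The 4 subunits summed to 627, 777 and 861 CPM in vehicle and 399, 335 and 384 CPM in RGS, without overlap. Vps29 measured 94.9, 156 and 209 CPM in vehicle and 67.9, 59.1 and 87.0 CPM in RGS, where RGS 12 came near vehicle 7 (log2 fold change −1.10, adjusted p = 0.00103, edgeR quasi-likelihood with Benjamini-Hochberg adjustment). Vps35 and Vps26a fell with it, while the alternative subunit Vps26b did not pass the threshold (log2 fold change 0.12, adjusted p = 0.662 with edgeR).

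Of the 9 exocyst subunits, which tether Rab carriers at the plasma membrane, Exoc3 (log2 fold change 0.63) and Exoc6b (0.55) were higher and Exoc4 (−0.59) and Exoc6 were lower (22.2% each way, against 16.3% higher and 16.5% lower of all tested genes), with a median of −0.12. Among 27 intraflagellar transport and BBSome genes, which build the cilium where Rab8, Rab23 and Rab28 act, Bbs2 (log2 fold change 0.93) and Ift27 (0.70) were higher and Bbs7 (−1.11) and Bbip1 (−0.89) lower, with a median of −0.12. These are 7.41% in each direction, under the 16.3% and 16.5% of all tested genes, and Ift27 and Bbip1 overlapped between groups. Of 6 Rab-like GTPases outside the naming rule, 5 were tested, with a median of 0.05. Ift27, which was higher, was the 1 of these past the threshold, where 16.3% of all tested genes were higher.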
